A study of Mus musculus with 9 samples.

Results

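Metallothioneins are small proteins rich in cysteine that bind zinc and copper, and the mouse has 4 genes for them, Mt1, Mt2, Mt3 and Mt4. The 3 genes described here are Mt1, Mt2 and Mt3, 3 of the 47729 gene identifiers in each count file of the series. They were found by matching the Ensembl identifiers to these gene symbols. The family was chosen by the log2 fold changes of Mt1 and Mt3, which had been seen higher in both Dot1l mutants than in controls, so the differences of the 3 genes with controls are given below as a description and without a test. The difference between the mutants was no part of that choice and was tested.

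The study examined Dot1l, the only known methyltransferase for lysine 79 of histone H3, in midbrain dopamine neurons. RNA was sequenced from the dissected dopamine area of the midbrain of mice aged 6 months, labelled P180, on a C57/Bl6 background. All groups carried 1 Pitx3-Cre allele and the reporter Rosa-lox-stop-lox-Yfp. The control group was Dot1l(+/+) with no floxed allele, Dot1l(fl/+) had 1 floxed allele, and Dot1l(fl/fl) had 2. Tissue of 3 mice was pooled for each library, and 3 libraries were made per group. Cre is driven by Pitx3, which in the midbrain marks dopamine neurons, so the other neurons, the glia and the vessels in the dissected tissue kept their Dot1l alleles in every group. The series description speaks of sorted cells at E15.75, whereas the label of every library gives P180 and dissected tissue, and the libraries were read as adult tissue.

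Metallothioneins hold zinc and copper in clusters bound by their cysteines and so buffer the free metal of the cell. Mt1 and Mt2 are made in most tissues, in the brain mostly by astrocytes and other glia, and their transcription rises with zinc through the zinc sensor MTF-1, which binds metal response elements in their promoters, and with glucocorticoids and oxidative stress. Mt3 is the brain form, first known as growth inhibitory factor, is found in astrocytes and in zinc-rich neurons, and is little induced by metals. Mt4 is made in stratified epithelium.

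The 4 genes lie in a row on the plus strand of chromosome 8, within 43.1 kb at chr8:94137197-94180327 (GRCm38). Mt4 comes first at chr8:94137197-94139031, then Mt3 (ENSMUSG00000031760) at chr8:94152607-94154146, Mt2 (ENSMUSG00000031762) at chr8:94172664-94173568 and Mt1 (ENSMUSG00000031765) at chr8:94179082-94180327. The main transcript of each of the 3 brain-expressed genes has 3 exons, and the middle exon has 66 bases in all of them, every one coding. Since the answer of Mt1 and Mt2 to zinc runs through their promoters, the 250 bases before their RefSeq start sites (GRCm38.p6, plus strand) are shown, with capitals for matches on either strand to the core of the metal response element, TGCACNC or TGCGCNC. The stretches are chr8:94178839-94179088 for Mt1, chr8:94172368-94172617 for Mt2 and chr8:94152357-94152606 for Mt3. The last 7 bases shown for Mt1 lie in the first exon of its GENCODE transcript.
Mt1 promoter: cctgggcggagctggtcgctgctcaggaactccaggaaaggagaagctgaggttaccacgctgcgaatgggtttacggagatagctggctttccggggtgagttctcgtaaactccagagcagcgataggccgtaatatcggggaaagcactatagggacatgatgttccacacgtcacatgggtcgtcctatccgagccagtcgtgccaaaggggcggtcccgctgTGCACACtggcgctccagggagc
Mt2 promoter: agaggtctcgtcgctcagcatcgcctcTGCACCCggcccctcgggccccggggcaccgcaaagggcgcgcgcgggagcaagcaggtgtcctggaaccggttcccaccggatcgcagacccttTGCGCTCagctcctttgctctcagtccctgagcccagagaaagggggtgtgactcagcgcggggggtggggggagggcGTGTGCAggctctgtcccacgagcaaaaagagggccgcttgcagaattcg
Mt3 promoter: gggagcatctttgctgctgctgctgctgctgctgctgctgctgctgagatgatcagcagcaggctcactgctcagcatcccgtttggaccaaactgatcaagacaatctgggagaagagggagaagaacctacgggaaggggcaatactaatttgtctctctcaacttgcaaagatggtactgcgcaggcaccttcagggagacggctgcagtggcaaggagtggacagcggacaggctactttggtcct
In the window of 300 bases that runs on for 50 bases past the start, Mt1 held 3 matches, 1 of them before the start, and Mt2 held 4, 3 of them before the start. Mt3 held 1 match and Mt4 held 1, that of Mt3 after its start. Among the 32851 promoters of the same length in the table, 25.7% held at least 1 match, 1.97% at least 3 and 0.517% at least 4. The antioxidant response element core TGACNNNGC was found in the window of Mt2 alone among the 4 genes, once, and in 12.4% of all promoters. A match is a run of letters and not a measured binding site. The windows rest on the RefSeq starts, and where transcription starts in this tissue was not measured. Those of Mt1, Mt2 and Mt3 held no TATA box (TATAAA), and bases farther past the start were not searched.

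The coding sequences are shown because they separate the members and hold the residues that bind metal. Capitals mark the cysteine codons (TGC or TGT), as read from the GENCODE M21 transcripts of GRCm38.
Mt1 coding sequence: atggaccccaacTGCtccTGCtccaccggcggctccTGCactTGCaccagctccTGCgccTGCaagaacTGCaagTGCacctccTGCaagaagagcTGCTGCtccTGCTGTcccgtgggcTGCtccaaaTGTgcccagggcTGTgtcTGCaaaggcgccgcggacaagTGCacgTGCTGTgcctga
Mt2 coding sequence: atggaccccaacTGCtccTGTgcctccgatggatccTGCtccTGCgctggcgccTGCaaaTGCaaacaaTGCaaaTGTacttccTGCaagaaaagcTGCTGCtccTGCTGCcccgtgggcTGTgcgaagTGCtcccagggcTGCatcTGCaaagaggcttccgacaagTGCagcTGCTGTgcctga
Mt3 coding sequence: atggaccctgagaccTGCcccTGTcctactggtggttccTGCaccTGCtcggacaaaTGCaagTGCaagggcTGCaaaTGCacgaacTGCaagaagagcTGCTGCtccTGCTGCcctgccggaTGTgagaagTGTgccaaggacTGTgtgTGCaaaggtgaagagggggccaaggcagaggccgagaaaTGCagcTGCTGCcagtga
Mt1 and Mt2 each have 61 codons before the stop, 20 of them for cysteine (32.8%). Mt3 has 68 codons and the same 20 cysteine codons in number (29.4%), with an added stretch near its end. The coding bases of Mt1 and Mt2 were identical in 79.6% of aligned positions, those of Mt1 and Mt3 in 66.2% and those of Mt2 and Mt3 in 67.6%. No stretch of 50 bases was shared between transcripts of any 2 of these genes, so a read of that length without errors could come from only 1 of the 3. For Mt2, 45.8% of such stretches also lie in Gm45774, a gene annotated on the opposite strand, which was not analysed here. The library kit keeps strand, but the strand setting of the counting is not given in the sources used here, so the Mt2 counts may hold reads of that antisense gene.

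The deposited counts summed to between 16422135 and 28403218 per library, with the lowest total in Dot1l(fl/fl) replicate 3. In the edgeR quasi-likelihood fit of 17671 genes no gene passed an adjusted p-value of 0.05 in any of the 3 comparisons (0.0% each). At an unadjusted p-value of 0.05 the comparison of Dot1l(fl/+) with controls had 1483 genes (8.39%), 4.3% higher and 4.09% lower. That of Dot1l(fl/fl) with controls had 694 genes (3.93%), 2.21% higher and 1.72% lower, and that of Dot1l(fl/fl) with Dot1l(fl/+) had 1145 (6.48%), 3.6% higher and 2.87% lower. DESeq2 called 7, 3 and 11 genes at its adjusted threshold, and edgeR with the replicate number as a block called 0, 3 and 3. Dot1l itself had 85.2, 80.2 and 85.1 counts per 1000000 (CPM) in the control pools, 84.2, 60.6 and 75.6 in Dot1l(fl/+), and 82.1, 73.9 and 82.9 in the Dot1l(fl/fl) pools. Counts per gene over tissue in which most cells keep Dot1l do not measure the loss of the floxed exon in dopamine neurons. Markers of other cells were abundant under the label midbrain dopamine neurons: 12 oligodendrocyte markers summed to between 10940 and 12500 CPM per pool, 15 astrocyte markers to between 4837 and 5322 and 10 dopamine neuron markers to between 470.4 and 688.1. In such tissue fewer cells of a type and less RNA per cell cannot be told apart.

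Mt1 was the most counted of the family, with 1113 to 2728 counts per library. It stood at 55.3, 69.3 and 65.9 CPM in the control pools, at 78.5, 94.3 and 85.3 CPM in Dot1l(fl/+), and at 89.1, 108.0 and 67.5 CPM in the Dot1l(fl/fl) pools. All 3 Dot1l(fl/+) pools lay above every control pool, as did 2 of the 3 Dot1l(fl/fl) pools, while Dot1l(fl/fl) replicate 3 lay among the controls. The group means were 63.5 ± 7.28, 86.0 ± 7.94 and 88.2 ± 20.2 CPM (SD, n = 3 pools each).

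Mt2, the close relative of Mt1, had the fewest counts of the 3, from 589 to 1537 per library. Its level was 33.7, 36.7 and 36.4 CPM in controls, 42.2, 50.6 and 41.6 CPM in Dot1l(fl/+), and 48.5, 60.8 and 35.7 CPM in the Dot1l(fl/fl) pools. The controls lay close together, all 3 Dot1l(fl/+) pools were above them, and again only Dot1l(fl/fl) replicate 3 of the mutant pools was not. The means were 35.6 ± 1.67 in Dot1l(+/+), 44.8 ± 5.04 in Dot1l(fl/+) and 48.3 ± 12.5 CPM in the Dot1l(fl/fl) pools.

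Mt3, the brain form, had 865 to 2623 counts per library. The control pools had 50.6, 62.2 and 48.2 CPM, the Dot1l(fl/+) pools 65.4, 79.4 and 85.9 CPM, and the Dot1l(fl/fl) pools 87.0, 104.0 and 52.5 CPM. The pattern was that of the other two genes: no overlap between Dot1l(fl/+) and controls, and Dot1l(fl/fl) replicate 3 alone within the control range. Means were 53.7 ± 7.5, 76.9 ± 10.5 and 81.1 ± 26.1 CPM, so that the spread between the Dot1l(fl/fl) pools was the widest of the 3 groups. Mt4, the epithelial gene, had 0 counts in all 9 libraries, where a count of 0 allows up to 3 counts, or 0.106 to 0.183 CPM, counting error only.

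**Figure D1:**
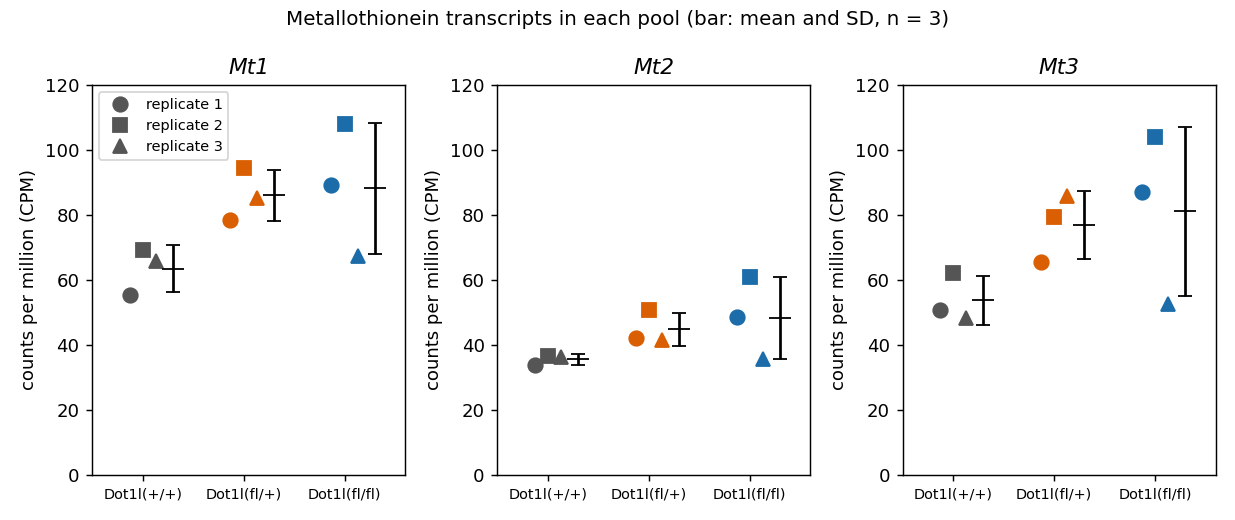
CPM of Mt1, Mt2 and Mt3 (y axis) in each pool of the 3 genotypes (x axis), with the replicate number given by the shape of the point and the mean and SD of 3 pools beside them. The Dot1l(fl/+) pools all sit above the controls for each gene, whereas Dot1l(fl/fl) spreads from 67.5 to 108.0 CPM for Mt1, with replicate 3 at the control level.

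Across all 17671 genes tested, 6.84% had all 3 Dot1l(fl/+) pools above every control, the place of all 3 metallothioneins. For Dot1l(fl/fl), 5.03% had all 3 pools above every control and 20.9% had 2 or 3, and the metallothioneins were among the latter. The share with 2 or 3 Dot1l(fl/+) pools above every control was 23.9%. Both comparisons use the same 3 control pools, and the choice of the family used both, so nothing is read from these counts. The libraries could also be set against the control of the same replicate number, although these numbers are not shown to mark litters. Against it Mt1 was 1.42, 1.36 and 1.3 times as high in Dot1l(fl/+) replicates 1, 2 and 3, and 1.61, 1.56 and 1.03 times in Dot1l(fl/fl). For Mt3 the ratios were 1.29, 1.28 and 1.78 in Dot1l(fl/+) and 1.72, 1.67 and 1.09 in the Dot1l(fl/fl) pools. All 6 mutant pools were thus above their same-numbered control for Mt1 and Mt3, as they were for 4.62% of all genes. Mt2 was above it in 5 of 6 pools, with ratios of 1.25, 1.38 and 1.14 and then 1.44, 1.66 and 0.98.

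Summed, the 3 genes took 140.0, 168.0 and 151.0 CPM in controls, 186.0, 224.0 and 213.0 CPM in Dot1l(fl/+), and 225.0, 272.0 and 156.0 CPM in the Dot1l(fl/fl) pools. The ratio of Mt1 to Mt2 lay between 1.64 and 2.05 over the 9 libraries, that of Mt3 to Mt2 between 1.32 and 2.07, and that of Mt1 to Mt3 between 0.993 and 1.37. Per kilobase of the 3-exon transcript, Mt1 had 116 ± 13.3 CPM in controls, Mt3 100 ± 14.0 and Mt2 69.7 ± 3.27. Mt1 and Mt3 did not differ beyond their spread on that scale, and Mt2 lay below both. Per kilobase of all annotated exons together, which are longer for Mt1 (1246 bases) and Mt3 (1066) than for Mt2 (588), the levels in controls were 51.0 ± 5.84 for Mt1, 60.5 ± 2.84 for Mt2 and 50.4 ± 7.03 for Mt3. The order of the genes in these data therefore depends on which transcripts are taken to be made. By mean CPM, Mt1 stood above 82.0% of the genes tested, Mt3 above 79.8% and Mt2 above 69.5%.

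In the fit of all 9 libraries the log2 fold changes of Dot1l(fl/+) over controls were 0.44 for Mt1 (SE 0.13, 1.35-fold), 0.33 for Mt2 (SE 0.14, 1.26-fold) and 0.52 for Mt3 (SE 0.18, 1.43-fold). Those of Dot1l(fl/fl) were 0.48 for Mt1 (SE 0.13, 1.39-fold), 0.45 for Mt2 (SE 0.14, 1.36-fold) and 0.60 for Mt3 (SE 0.19, 1.52-fold). Mt3 thus had the largest estimate and Mt2 the smallest in each mutant, and the standard errors of the 3 estimates overlapped. In Dot1l(fl/+) the order of Mt1 and Mt3 turned without Dot1l(fl/+) replicate 3 (0.443 and 0.433) and without Dot1l(+/+) replicate 3 (0.466 and 0.448). In Dot1l(fl/+), 3.32% of all genes tested had a larger log2 fold change than Mt1, 5.31% than Mt2 and 2.34% than Mt3. In Dot1l(fl/fl) these shares were 2.51%, 2.84% and 1.4%.

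Individual libraries carried much of the size in Dot1l(fl/fl). Without Dot1l(fl/fl) replicate 2, the highest pool, the log2 fold change over controls was 0.31 for Mt1, 0.25 for Mt2 and 0.39 for Mt3. Without Dot1l(fl/fl) replicate 3, the lowest pool and the shallowest library, it was 0.63, 0.62 and 0.83. In Dot1l(fl/+), leaving out any 1 library gave 0.35 to 0.51 for Mt1, 0.23 to 0.38 for Mt2 and 0.43 to 0.65 for Mt3, with the lowest value of Mt2 reached without Dot1l(fl/+) replicate 2. An offset for transcript length and GC content took Mt2 in Dot1l(fl/+) to 0.16 (SE 0.12), with 0.34 for Mt1 and 0.40 for Mt3. In Dot1l(fl/fl) the same offset gave 0.44, 0.35 and 0.57.

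**Figure D2:**
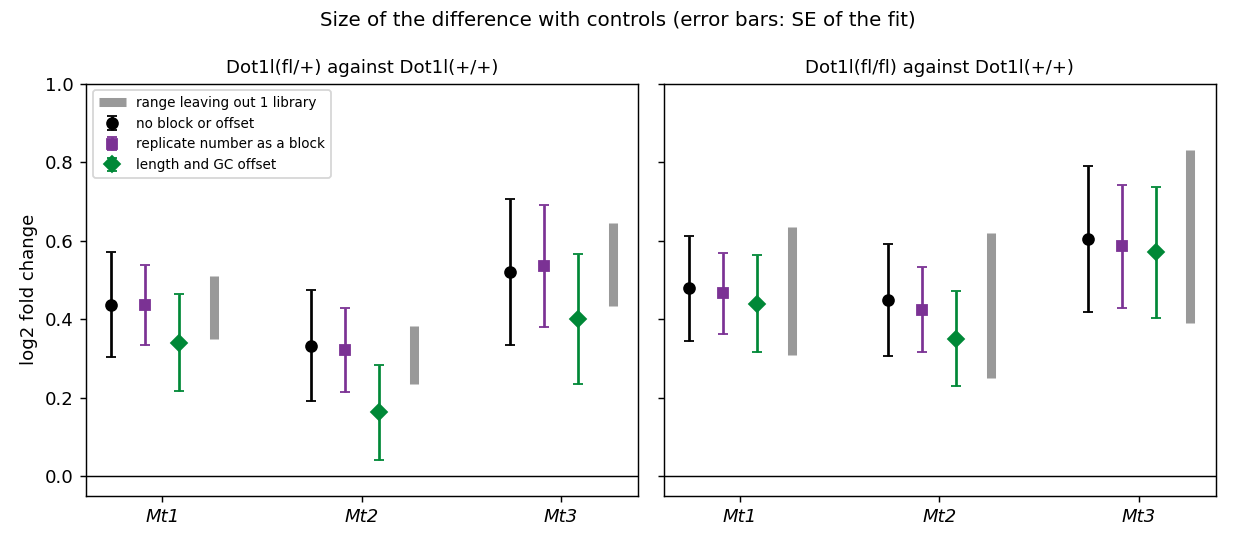
Log2 fold changes of Mt1, Mt2 and Mt3 over controls (y axis, error bars SE) in Dot1l(fl/+) and Dot1l(fl/fl), with no block or offset, with the replicate number as a block, and with the offset for length and GC content; gray bars run from the lowest to the highest value when 1 library is left out. Every estimate lies above 0, Mt2 in Dot1l(fl/+) falls to 0.16 with the offset, and the gray bars are longer in Dot1l(fl/fl).

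Loss of the second Dot1l allele was set against loss of 1 by comparing the mutants directly. Mt1 was 0.04 higher on the log2 scale in Dot1l(fl/fl) than in Dot1l(fl/+) (95% interval −0.24 to 0.33, edgeR adjusted p = 0.969). Mt2 differed by 0.12 (−0.19 to 0.42, edgeR adjusted p = 0.905) and Mt3 by 0.08 (−0.31 to 0.48, edgeR adjusted p = 0.954). Both mutants gave overlapping values for each gene, and the difference was smaller than its error for all 3. With the offset for length and GC content the differences were larger, 0.10 for Mt1 (SE 0.12), 0.19 for Mt2 (SE 0.12) and 0.17 for Mt3 (SE 0.16), with edgeR adjusted p = 0.942, 0.891 and 0.92. The intervals with no offset reach 0.33 for Mt1, 0.42 for Mt2 and 0.48 for Mt3, so the mutants are not shown to be alike. Without Dot1l(fl/fl) replicate 2 the sign turned for all 3 genes, to −0.13 for Mt1, −0.08 for Mt2 and −0.14 for Mt3, and without Dot1l(fl/+) replicate 1 it turned for Mt1 (−0.02) and Mt3 (−0.02).

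Covariation was measured on log2 CPM after the mean of each genotype was removed, so that differences between genotypes do not enter. Mt1 and Mt2 had r = 0.944 and rho = 0.917 over the 9 libraries (exact permutation within genotype, two-sided, p = 0.0139 and 0.00926). Mt1 and Mt3 had r = 0.879 and rho = 0.717 (exact permutation p = 0.0463 and 0.106), and Mt2 and Mt3 had r = 0.828 and rho = 0.667 (exact permutation p = 0.134 and 0.125). In a family of 15 relations none of these passed adjustment, the Benjamini-Hochberg values being 0.174, 0.208 and 0.288 for r and 0.139, 0.312 and 0.312 for rho. Dot1l(fl/fl) replicates 2 and 3 lay farthest from the median. Without them r was 0.793 for Mt1 and Mt2, 0.579 for Mt1 and Mt3 and 0.216 for Mt2 and Mt3, so the relation of Mt2 with Mt3 rests on those 2 pools. With the means of the replicate numbers removed as well, a step added after the data were seen, r was 0.932, 0.831 and 0.698.

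**Figure D3:**
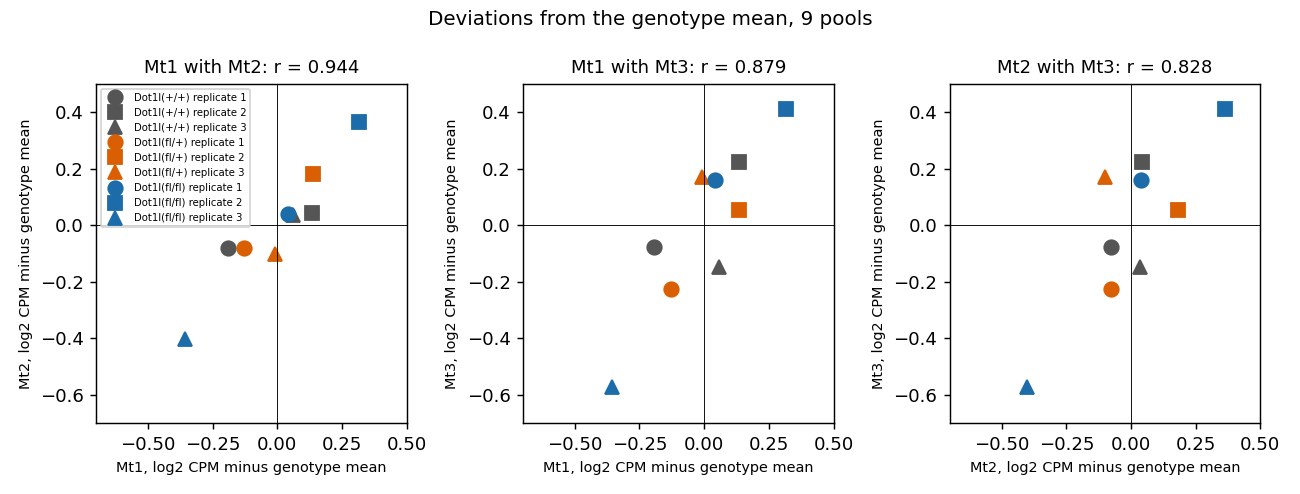
Deviation of each pool from the mean of its genotype, in log2 CPM, for the 3 pairs of metallothionein genes, with genotype shown by color and replicate number by shape. Dot1l(fl/fl) replicate 2 is the highest and Dot1l(fl/fl) replicate 3 the lowest pool for all 3 genes, and the other 7 pools lie between them.

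Among 10631 genes with a mean of at least 10 CPM, the genes whose log2 CPM ran closest to each member over the 9 libraries were listed as a description; all share the same libraries, depth and genotype differences. For Mt1 they were Gm7308 (r = 0.99), Basp1 (0.984), which encodes a membrane protein of growth cones, Rpl14-ps1 (0.977), named as a ribosomal protein pseudogene, and the complex I subunit gene Ndufa3 (0.969). Mt2 came in 6th place for Mt1 and Mt3 in 19th. For Mt2 they were Ywhae (0.975), a 14-3-3 protein gene, Mt1 itself (0.959), the complex III subunit gene Uqcrb (0.951) and Bola2 (0.948), while Mt3 came in 24th place. The closest to Mt3 were Gm11273 (0.97), the ribosomal protein gene Rpl41 (0.964), the profilin gene Pfn1 (0.96) and Fam3a (0.957), with Mt1 in 15th place and Mt2 in 40th. These places still hold the genotype differences by which the family was chosen. With genotype means removed, Basp1 (0.984), Gm7308 (0.983), Rnf4 (0.974) and Gm11223 (0.971) were closest to Mt1. Rps16-ps2 (0.966), Abhd17c (0.957) and Ywhae (0.954) were then closest to Mt2, and Serp2 (0.99), the muscarinic receptor gene Chrm3 (0.97), Zc3h10 (0.963) and Rpl23 (0.959) to Mt3. On this measure the members stood farther from each other: Mt2 was 16th and Mt3 65th for Mt1, Mt1 was 8th and Mt3 162nd for Mt2, and Mt1 was 69th and Mt2 134th for Mt3.

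The 3-exon transcripts of the metallothioneins have only 511 to 549 bases, although the longest annotated transcript of Mt1 has 1085, so that Mt1 would itself not be in the set that follows. Short protein-coding genes, here the 497 other tested genes whose longest transcript is under 1000 bases, were also mostly higher in the mutants. In Dot1l(fl/+) 393 of the 497 were higher and 104 lower than controls. The median log2 fold change of these genes was 0.16, beside −0.0034 for all genes tested. Of them, 13.1% had a larger log2 fold change than Mt1, 21.9% than Mt2 and 9.05% than Mt3. In Dot1l(fl/fl) 336 were higher and 161 lower, with a median of 0.07, and 7.24%, 7.85% and 4.43% exceeded Mt1, Mt2 and Mt3. Within genotypes the mean log2 CPM of the short genes had r = 0.675 with Mt1, 0.662 with Mt2 and 0.746 with Mt3 (rho 0.583, 0.5 and 0.75; exact permutation adjusted p = 0.288, 0.378 and 0.236 for r and 0.394, 0.438 and 0.295 for rho). Without Dot1l(fl/fl) replicates 2 and 3 the values of r were 0.382, 0.298 and 0.704 and those of rho 0.0714, −0.0714 and 0.607, so the relations with Mt1 and Mt2 rest on those 2 pools. On values corrected for length and GC content over all 9 libraries r was 0.349, 0.351 and 0.507. With the offset for length and GC content the median of the short genes was 0.06 in Dot1l(fl/+) and 0.02 in the other mutant. With no offset, leaving out replicate 2 of the Dot1l(fl/fl) pools gave this second median as 0.02, and leaving out their replicate 3 gave 0.11. The 3 metallothioneins thus differed from controls in the same direction as most short transcripts of these libraries, and the part of transcript length in their difference was not tested beyond the offset above.

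**Figure D4:**
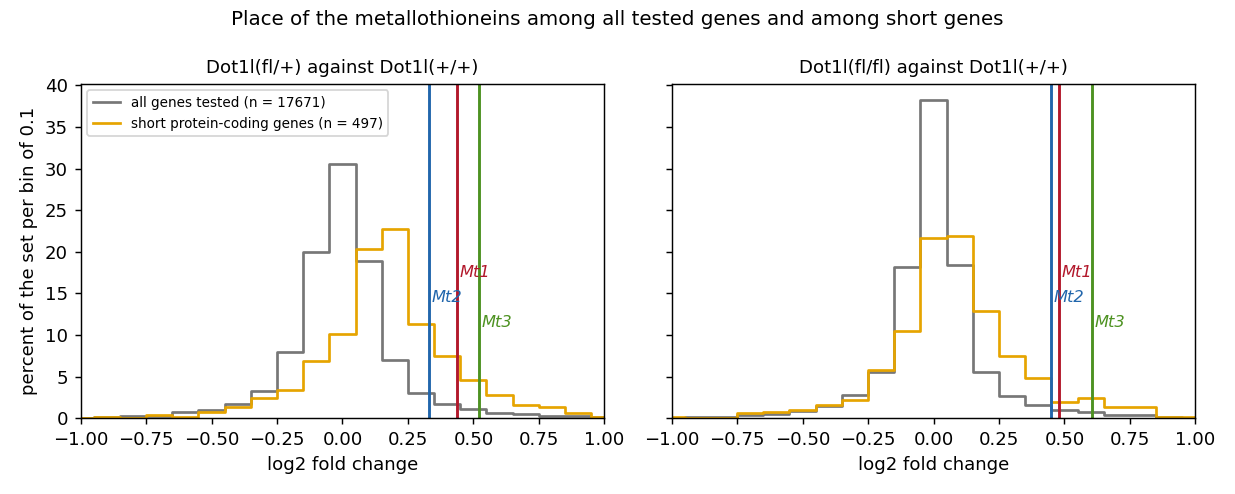
Distribution of log2 fold changes over controls (x axis, bins of 0.1; y axis, percent of the set) for all 17671 genes tested and for 497 short protein-coding genes, with vertical lines at Mt1, Mt2 and Mt3. The short genes are shifted to the right of all genes in Dot1l(fl/+), with medians of 0.16 and −0.0034, and 2.34% to 5.31% of all genes and 9.05% to 21.9% of the short genes lie to the right of the metallothioneins there.

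Of the other genes of metal handling, 45 were listed and 42 passed the filter on low counts. In Dot1l(fl/+) 4 of the 42 were higher and 2 lower than controls at an unadjusted p-value of 0.05, none after adjustment. The median log2 fold change was −0.02. Among all genes tested, 4.3% were higher in this mutant at that threshold and 4.09% lower. In Dot1l(fl/fl) 2 of the 42 were higher and 1 lower, with a median of 0.01, beside 2.21% higher and 1.72% lower among all genes. The medians of all genes tested were −0.0034 and 0.0009. The zinc sensor gene Mtf1 was at 37.3 CPM with log2 fold changes of 0.06 in Dot1l(fl/+) and −0.06 in the Dot1l(fl/fl) pools (SE 0.08 each). Slc30a1, the zinc exporter gene of the cell membrane that like Mt1 is a target of MTF-1, was at 42.8 CPM with −0.04 and 0.06 (SE 0.07 each). Neither was past its error. The zinc transporter genes with the highest counts, Slc30a9 (241 CPM) and Slc39a10 (166 CPM), had log2 fold changes of 0.01 and 0.00 in Dot1l(fl/+) and of 0.03 and 0.00 in the Dot1l(fl/fl) pools.

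The genes of that list with an unadjusted p-value under 0.05 were copper and iron genes, apart from the zinc importer gene Slc39a6. Atox1, a copper chaperone gene, had 9.51, 8.8 and 7.74 CPM in controls, 9.91, 11.9 and 13.7 CPM in Dot1l(fl/+) and 10.9, 12.4 and 10.2 CPM in the Dot1l(fl/fl) pools. All 6 mutant pools were above every control, as they were for 1.45% of all genes tested, with log2 fold changes of 0.45 (unadjusted p = 0.00482) and 0.37 (0.0168), and neither passed adjustment. Sod1, the copper-zinc superoxide dismutase gene, was 0.24 higher in Dot1l(fl/+) (0.0106), and Sco2, needed for copper delivery to complex IV, 0.37 (0.0281). Ftl1, a ferritin light chain gene, was 0.56 higher in Dot1l(fl/+) and 0.94 in the Dot1l(fl/fl) pools (0.0418 and 0.00211), but at 3.27 CPM and with near copies in the genome its counts are uncertain. The transferrin receptor gene Tfrc and the iron regulator gene Ireb2 were both 0.13 lower in Dot1l(fl/+) (0.0197 and 0.0136), and the copper pump gene Atp7a was 0.36 lower in Dot1l(fl/fl) (0.0273). Between the mutants Slc39a6 was 0.14 higher in Dot1l(fl/fl) (0.0452). Fth1, the ferritin heavy chain gene and the most counted of the list at 1350 CPM, had 0.12 and −0.01 without passing the test.

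The family was chosen for high log2 fold changes in both mutants, where only 1.4% to 5.31% of all genes tested exceeded a member. That the 6 nearest tested genes, 3 on each side, lay below the metallothioneins in both mutants is therefore a description only. Bbs2 ends 38.3 kb before Mt4 and Nup93 starts 34.2 kb after Mt1, and their log2 fold changes were −0.01 and 0.04 in Dot1l(fl/+) and −0.02 and 0.14 in the Dot1l(fl/fl) pools. Farther out, Nudt21 had −0.08 and −0.16, Ogfod1 0.10 and 0.07, and Herpud1 0.14 and 0.03. None of these 5 had an unadjusted p-value under 0.05, the lowest being 0.066 for Herpud1 in Dot1l(fl/+). The sixth neighbour tested, Ap3s1-ps2, was listed at only 0.236 to 0.672 CPM. Its log2 fold changes were 0.00 in Dot1l(fl/+) and 0.44 in the Dot1l(fl/fl) pools (SE 0.41), the latter close to the 0.45 of Mt2. The SE given for Dot1l(fl/+), 4.39, is not usable at such counts.

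Lists of cell type markers and of genes with known inducers were read beside the metallothioneins. The 15 astrocyte markers, the cells in which Mt1 and Mt2 are best known, had a median log2 fold change of −0.01 in both mutants, with summed levels of 4966 to 5322 CPM in controls, 4837 to 5189 CPM in Dot1l(fl/+) and 4984 to 5154 CPM in Dot1l(fl/fl). None was at 0, and at an unadjusted p-value of 0.05 there was 1 higher (Aldh1l1) and 1 lower (Sox9) in Dot1l(fl/+) and 1 lower (Itih3) in Dot1l(fl/fl). Of all genes tested, 4.3% were higher and 4.09% lower in Dot1l(fl/+) at that threshold, and 1.72% lower in Dot1l(fl/fl). The sums of the 3 groups overlapped, and the part of astrocytes in the metallothionein difference was not tested. Within genotypes, for the mean log2 CPM of the astrocyte list, r was 0.808 with Mt3, 0.75 with Mt1 and 0.575 with Mt2, and rho was 0.883, 0.767 and 0.583. The exact permutation p-values adjusted over the 15 relations were 0.174, 0.208 and 0.378 for r and 0.139, 0.295 and 0.394 for rho, so none passed. Without Dot1l(fl/fl) replicates 2 and 3 the r with Mt3 was 0.95, that with Mt1 0.663 and that with Mt2 0.203. The mean log2 CPM of the astrocyte list lay between 7.41 and 7.46.

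Genes that respond to glucocorticoids, among them Fkbp5, Tsc22d3 and Sgk1, were tested because stress hormones induce Mt1 and Mt2. Of 16 such genes none was higher in either mutant at an unadjusted p-value of 0.05 and 2 were lower in Dot1l(fl/+) (Zbtb16 and Sult1a1). Over all genes tested, 4.3% were higher and 4.09% lower at this threshold in Dot1l(fl/+). For Dot1l(fl/fl) these shares were 2.21% and 1.72%. With shares so small, 16 genes with none higher are not set apart from the rest. The medians of the list were 0.01 in both mutants, with −0.12 in Dot1l(fl/+) when its replicate 2 was left out. Fkbp5, a co-chaperone of the glucocorticoid receptor, had a log2 fold change of 0.00 in each mutant. Within genotypes the list had r = 0.246 with Mt1, 0.397 with Mt2 and 0.116 with Mt3 (rho 0.383, 0.6 and 0.2; exact permutation adjusted p = 0.641, 0.458 and 0.734 for r and 0.486, 0.377 and 0.648 for rho). The values of r without Dot1l(fl/fl) replicates 2 and 3 were 0.283, 0.731 and 0.131. With the means of the replicate numbers removed as well, the sign turned for all 3, to −0.686, −0.412 and −0.742. For Mt1, leaving out 1 library gave r from 0.0136 (replicate 2 of Dot1l(fl/+)) to 0.416 (replicate 3 of Dot1l(fl/fl)), with 0.0608 when replicate 2 of Dot1l(fl/fl) was the one. For Mt2, r was 0.742 when only replicate 3 of Dot1l(fl/fl) was left out and 0.174 when only replicate 2 of Dot1l(fl/+) was. Of 14 targets of Nrf2, the regulator of the antioxidant response, 2 were lower in Dot1l(fl/+) (Gclm and Slc7a11) and 1 was higher in Dot1l(fl/fl) (Hmox1), with medians of 0.02 and −0.01. Reactive glia markers, 9 of 11 past the filter, had medians of −0.09 and −0.06, with 1 lower in Dot1l(fl/+) (Cd44, −0.29, unadjusted p = 0.0291), and Gfap at 308 CPM had 0.07 and 0.08 without passing the test.

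Some markers of other cell types also differed between genotypes at an unadjusted p-value of 0.05. Their part in the metallothionein difference was not tested. Of the genes tested as a whole, 4.3% were higher and 4.09% lower at that threshold in Dot1l(fl/+). The shares for Dot1l(fl/fl) were 2.21% higher and 1.72% lower. A single marker past the threshold in a list of 10 or 12 is not read as a difference of that cell type. Of the 10 dopamine neuron markers, 3 were lower in Dot1l(fl/+) and 9 in the Dot1l(fl/fl) pools. None passed adjustment in the edgeR fit with genotype alone, and the median log2 fold changes over the list were −0.20 and −0.58. Of the choroid plexus and ependyma markers, 4 of 10 were higher in Dot1l(fl/+) (Ttr, Kl, Folr1 and Clic6, median of the list 0.54). In Dot1l(fl/fl) 4 of 10 were lower (Ttr, Clic6, Kcnj13 and Slc4a5, median −0.50). The ependymal markers were not among them, and Tmem212 (0.38 and 0.21) and Dynlrb2 (0.50 and 0.14) had positive log2 fold changes in both mutants. The summed level of the 10 markers was 74.76 to 165.1 CPM in controls, 125.7 to 602.2 in Dot1l(fl/+) and 47.21 to 55.38 in Dot1l(fl/fl). The highest sum came from Dot1l(fl/+) replicate 3. Without that pool the median in Dot1l(fl/+) was 0.07 for choroid plexus and ependyma markers and −0.09 for dopamine neuron markers. Microglia markers had medians of 0.15 in each mutant, with 1 and 3 of 10 higher. Leaving out replicate 1 of the Dot1l(fl/+) pools gave the first of these medians as 0.27, and leaving out their replicate 2 gave 0.07. Mural and meningeal markers had medians of −0.21 and 0.00, with 1 of 12 lower in Dot1l(fl/+), and within genotypes their r was 0.105 with Mt1, 0.202 with Mt2 and −0.195 with Mt3 (rho 0.283, 0.3 and −0.267; exact permutation adjusted p = 0.741, 0.641 and 0.641 for r and 0.585 for each rho). Leaving out Dot1l(fl/fl) replicates 2 and 3 made these values of r 0.495, 0.92 and −0.00542. Oligodendrocyte markers had medians of 0.07 and −0.01 with 3 of 12 higher in Dot1l(fl/+), endothelial markers 0.00 and −0.02 with none past that threshold, and general neuron markers −0.06 and 0.00 with 1 of 12 lower in Dot1l(fl/+). Without Dot1l(fl/+) replicate 2 the median in Dot1l(fl/+) was −0.41 for mural and meningeal markers.

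**Figure D5:**
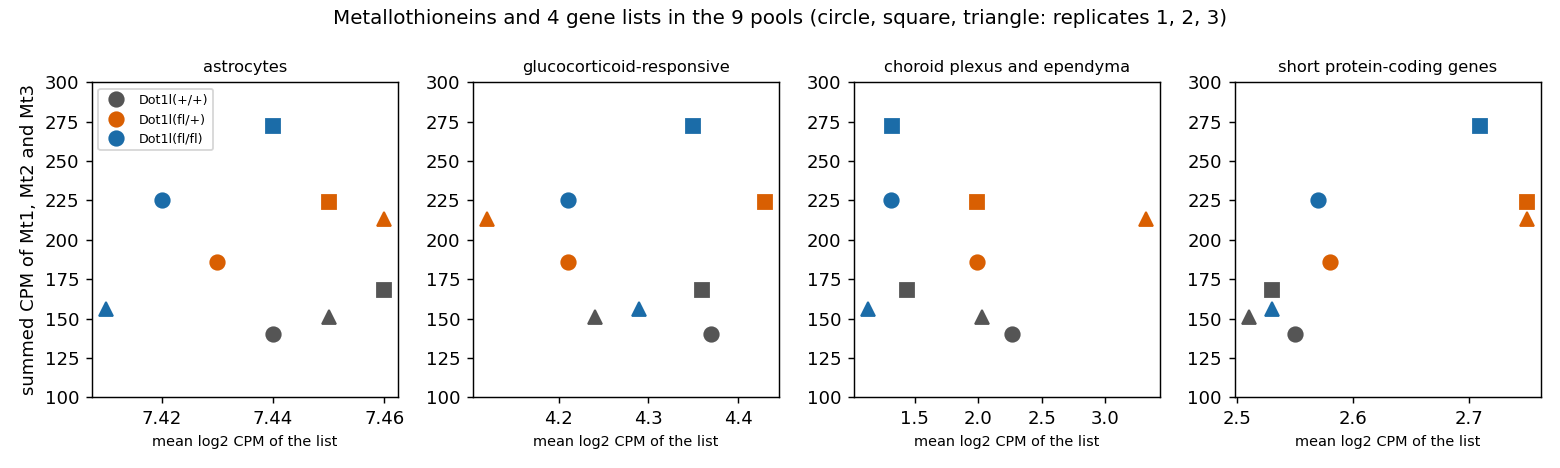
Summed CPM of Mt1, Mt2 and Mt3 (y axis) against the mean log2 CPM of 4 gene lists (x axes, each with its own range) in the 9 pools, with color for genotype and shape for replicate number. The metallothionein sum runs from 140.0 to 272.0 CPM and the astrocyte list from 7.41 to 7.46 in mean log2 CPM, and the Dot1l(fl/fl) pools lie at the low end of the choroid plexus axis.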

How the data were processed

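RNA of dissected adult midbrain was sequenced in 9 pools, 3 per genotype. Directional libraries were sequenced by the authors on a NextSeq 500, reads were mapped to GRCm38.p4, and the values they deposited are raw read counts for each Ensembl gene. The submitters' processing notes list bcl2fastq 2.17, Trimmomatic 0.30 and DESeq2 1.10.1. The aligner, the counting tool, its strand setting and the annotation release are not given in the sources used here. Each count file held 47729 identifiers, of which 47310 with 99.9% of the counts were in GENCODE M21, and no row stood for reads without a gene. The series also holds 3 tables of the authors' own DESeq2 comparisons, with fold changes and p-values, which were not used.

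Genes were kept with filterByExpr (17671) and fitted with the edgeR 4.0.16 quasi-likelihood test (R 4.3.3, TMM factors 0.9878 to 1.009) over all 9 libraries with genotype alone in the model, and p-values were adjusted by Benjamini-Hochberg over all genes tested. CPM are scaled by TMM, and log2 CPM for correlations and list means used a prior count of 2. A replicate is a pool, so p-values measure the spread between pools. Correlations within genotype were tested by all 216 exact arrangements of the pools within genotypes. These arrangements take the pools of a genotype as exchangeable, so the p-values do not allow for sets shared between genotypes. Tables and figures were made with Python 3.11.15, pandas 2.3.3, numpy 2.4.6, scipy 1.17.1 and matplotlib 3.10.9, and the tests were checked on simulated data.

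The members and the gene lists were chosen with earlier results of these data known. The genes named are the family, Dot1l, the 3 nearest tested genes on each side, the 4 genes closest to each member (1 of them is not reported here), and, of the lists, those with the highest counts or an unadjusted p-value under 0.05, of which a selection is printed. The lists cover metal handling, glucocorticoid-responsive genes, Nrf2 targets, reactive glia, and markers of astrocytes, oligodendrocytes, microglia, endothelial, mural and meningeal, choroid plexus and ependyma cells, dopamine neurons and neurons.

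Pools combined sets of the 3 genotypes from 1 litter each, though the labels do not say that replicate numbers mark these sets. Same-numbered pools correlated after group means were removed (r 0.225 to 0.684 over 10631 genes, against −0.54 to 0.342 for other pairs). Only replicate 1 stood apart, with r of 0.607 to 0.684 among its pools. Pairs of replicate 3 pools (0.225 to 0.252) lay within the range of replicate 2 with replicate 3 pools (0.136 to 0.342). The numbers are therefore not shown to mark these sets, and a fit with the number as a block was run as an alternative. Alternatives were DESeq2 1.42.0, DESeq2 size factors, other filters, a fit of 2 groups, the block, an offset for length and GC (4 spline degrees of freedom, values for 99.6% of genes), a prior count of 0.5 and leaving out each library.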

Additional observations from a re-analysis of the deposited data

How the results depend on the processing

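The log2 fold changes of Mt1, Mt2 and Mt3 over controls kept their direction under every alternative run. Between the mutants the sign depended on single libraries: leaving out 1 library gave −0.13 to 0.19 for Mt1, −0.085 to 0.28 for Mt2 and −0.14 to 0.31 for Mt3, with the lowest values without Dot1l(fl/fl) replicate 2 and the highest without Dot1l(fl/fl) replicate 3, and −0.02 for Mt1 and Mt3 without Dot1l(fl/+) replicate 1. None of these differences passed the adjusted threshold.

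Counts of genes with an adjusted p-value under 0.05 were 0 in each comparison and changed as follows, in the order Dot1l(fl/+) with controls, Dot1l(fl/fl) with controls and Dot1l(fl/fl) with Dot1l(fl/+). DESeq2 called 7, 3 and 11, edgeR without a filter on low counts 251, 118 and 164, and a fit of only the 2 groups compared 1, 4 and 0. With the replicate block there were 0, 3 and 3, and with the length and GC offset and the replicate block 0, 3 and 4. Leaving out 1 library gave 0 to 5, 0 to 4 and 0 to 12, the highest without Dot1l(fl/+) replicate 2. The causes were not tested. With the replicate block no metallothionein passed the adjusted threshold between the mutants. Their differences with controls were not tested, so no call could change there.

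Among Pearson correlations, some with the lists of glucocorticoid-responsive and of mural and meningeal genes turned sign. With replicate-number means removed, r with the glucocorticoid list was −0.686 for Mt1, −0.412 for Mt2 and −0.742 for Mt3, and with the mural and meningeal list −0.503 for Mt1 and −0.262 for Mt2, while that of Mt3 went from −0.195 to −0.753. Leaving out 1 library gave −0.0878 (without Dot1l(fl/fl) replicate 2) to 0.36 (without Dot1l(fl/+) replicate 3) for Mt3 with the glucocorticoid list. With the mural and meningeal list it gave −0.409 to 0.532 for Mt1, −0.36 to 0.81 for Mt2 and −0.651 to 0.0915 for Mt3, each lowest without Dot1l(fl/+) replicate 2 and highest without Dot1l(fl/fl) replicate 3. Each genotype had only 3 pools, and Dot1l(fl/fl) replicate 3 had the fewest counts.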
